A study of Mus musculus with 20 samples.

Results

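The comparison set lungs of 5 mice given 13.5 Gy of radiation against lungs of 5 untreated mice, chosen by the treatment named in their labels. They are 10 of the 20 mice of the study, which also fed flaxseed to 5 unirradiated and 5 irradiated mice. All were C57BL/6, a common inbred strain. The dose went to the thorax, as the series' design states, with tissue collected after 48 hours. The sources used here do not give the sex, the age or the basal diet of the mice. The irradiated mice of this comparison received no flaxseed, and the untreated mice received neither treatment. Each mouse was read on its own array of 9600 spotted clones, which carry serial IDs without gene names. Clones are therefore given by ID and described by how they behaved, and the lung origin could not be checked against marker genes.

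Ionising radiation breaks DNA, and the breaks activate the p53 pathway, which halts division and can lead to cell death. In the lung, lymphocytes and the endothelium of small vessels are known as early targets. Inflammation of the irradiated lung, known as pneumonitis, develops later, and scarring later still.

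The arrays varied in brightness before any clone was compared. Background and signal averaged higher in irradiated mice, though neither difference passed a test. Median spot background was 35.8, 18.6, 17.9, 15.8 and 16.8 intensity units in untreated mice 1 to 5. It was 31.9, 33.3, 13.4, 46.7 and 24.5 units in irradiated mice 1 to 5. Untreated mouse 1 stood apart from its group, and irradiated mice ranged from below all untreated arrays to above them. On the log2 scale the background averaged 4.79 ± 0.67 in irradiated and 4.32 ± 0.48 in untreated mice (SD, n = 5), which is 0.47 or 1.39-fold higher with radiation (exact permutation test, two-sided, p = 0.238). Median signal ran with it, from 97.4 to 336 units in irradiated and from 123.4 to 218 units in untreated mice, with a log2 difference of 0.31 (exact permutation p = 0.365). The median ratio of signal to background was 6.80, 6.68, 7.54, 7.22 and 5.46 in irradiated mice 1 to 5 and 6.26, 8.48, 7.40, 8.27 and 8.14 in untreated mice 1 to 5. Its log2 difference was -0.19 (exact permutation p = 0.119). Spots above 2 times their background made up 91.1% ± 1.72 and 92.2% ± 1.51 of all spots (SD, n = 5; exact permutation p = 0.286). Adjustment was over 5 array measures, the last of which is a gradient over the array described below. After it, the exact permutation p of the measures given here ranged from 0.298 to 0.365. The smallest unadjusted p that 5 against 5 allows is 0.00794.

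**Figure D1:**
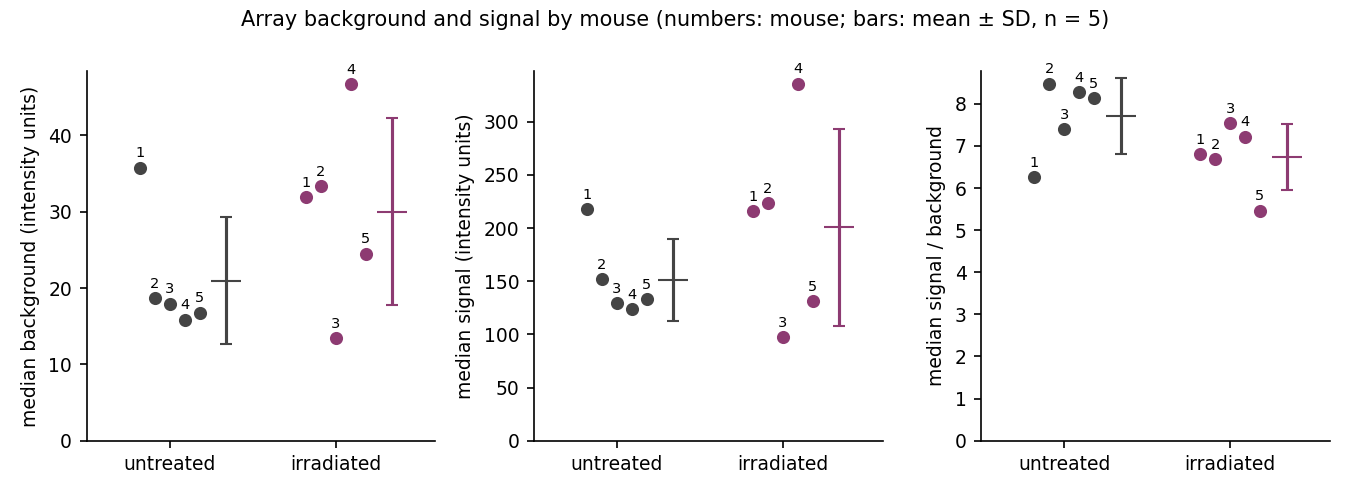
Median background, median signal (both in intensity units) and their median ratio on each array, with the mouse number above each point and the mean ± SD of 5 mice beside it. Untreated mouse 1, at 35.8 units of background, lies above the other 4 untreated mice, and irradiated mice span 13.4 to 46.7 units.

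Irradiated mouse 5 was the array least like its own group. Across clones it correlated with the other irradiated arrays at a mean r of 0.934 and with the untreated arrays at 0.939, whereas each of the other 9 arrays correlated more with its own group. Mean r within groups was 0.952 to 0.957 for untreated and 0.934 to 0.943 for irradiated arrays. The spread of a clone between irradiated mice exceeded that between untreated mice for 59.8% of clones, with median SDs of 0.35 and 0.30 log2 units.

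The largest changes after radiation were decreases. In irradiated lungs 43 clones fell and 25 rose, 0.448% and 0.26% of the 9600 tested and 0.708% together (limma, adjusted p under 0.05). The falls had a median of -1.61 on the log2 scale, or 3.04-fold, and reached -3.42. The rises had a median of 0.97, or 1.96-fold, and reached 1.25. In whole lung, fewer cells of a type and less RNA per cell cannot be told apart.

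More clones were higher than lower at a loose threshold, while large differences were mostly decreases. At an unadjusted p under 0.05, 717 clones were higher (7.47% of 9600) and 613 lower (6.39%), together 1330 or 13.9% where 480 are expected by chance. At 2-fold or more, 102 clones were lower and 28 higher, of which 34 and 11 passed the test. At 4-fold or more, 15 clones were lower, 14 of them past the test, and none was higher. The median over all 9600 clones was 0.01. No irradiated mouse overlapped an untreated one for 237 clones (2.47% of 9600), 107 higher (1.11%) and 130 lower (1.35%), and 52 of the 68 called clones were among them. The calls were made in the same mice, which favours a lack of overlap, also for the clones given by ID below. At a stricter adjusted p under 0.01, 2 clones rose and 10 fell, and at one under 0.1, 93 rose and 100 fell.

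**Figure D2:**
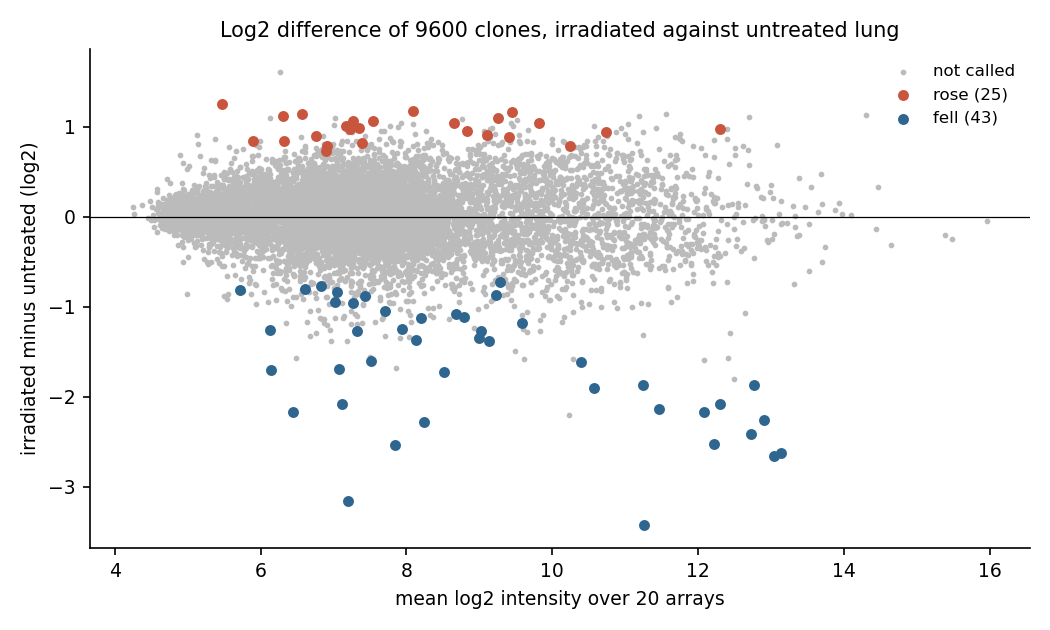
Log2 difference, irradiated minus untreated, of each of 9600 clones (vertical axis) against its mean log2 intensity over 20 arrays (horizontal axis), with the 25 called clones that rose and the 43 that fell in colour. Falls reach -3.42 and include bright spots, while called rises stay at or below 1.25.

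Falls were most frequent among bright spots. In the brightest 10% of clones by mean log2 intensity 13 of 960 fell and 3 rose, and in the dimmest 10% none fell and 1 rose. Clones lower by 2-fold or more made up 2.92% of the brightest and 0% of the dimmest 10%, and clones higher by 2-fold or more 0.625% and 0.104%. In the dimmest 10% the median ratio of signal to background was 1.69, against 43.7 in the brightest. On all 10 arrays 36 of the 43 that fell and 22 of the 25 that rose exceeded 2 times their background, near the share over all clones, 7972 of 9600.

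The 14 called clones that fell 4-fold or more were the largest of the called falls. Their median was -2.35 on the log2 scale, and 9 of them belonged to the brightest 10% of clones. The groups did not overlap for 12, which the choice of large called differences in the same mice favours. Over all 9600 clones 130 (1.35%) were lower without overlap. In flaxseed-fed mice, which are other animals, all 14 were also lower after irradiation, with log2 differences from -3.06 to -0.31 and a median of -2.02. Of the 14, 11 passed there, where 102 of all 9600 clones (1.06%) fell. The flaxseed-fed pair shares the estimate of spread, the normalisation and the spot positions with this comparison. Over the 20 mice, the deviations of the 14 from the group means had a median pairwise r of 0.20. It was 0.05 for the 29 smaller falls, 0.08 for the 25 rises and -0.02 for the brightest 10% of clones. These correlations describe clones that share arrays and processing, and some of the 14 also share a place within their block of spots, as described below. Among irradiated mice the median deviation of the 14 from the group mean was -0.32, 0.06, 0.27, 0.49 and -0.53 in mice 1 to 5, lowest in mouse 5 and highest in mouse 4. In untreated mice 1 to 5 it was 0.07, -0.16, 0.09, -0.14 and 0.41.

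The decrease of smallest p was that of gene7221. Its log2 intensity was 13.49, 13.67, 13.39, 12.86 and 13.39 in untreated mice 1 to 5 and 9.98, 10.78, 11.57, 11.27 and 10.56 in irradiated mice 1 to 5. All irradiated mice lay below all untreated mice, with 1.29 log2 units between the nearest of them. The difference was -2.53 (SE 0.31, 95% interval -3.17 to -1.89, limma adjusted p = 0.00041), or 5.77-fold. The spot stood at 42.7 to 80.2 times its background in untreated and 30.2 to 56.9 times in irradiated mice, so these ratios overlapped. The background beside it differed by -1.89 log2 units, irradiated minus untreated.

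The clone gene5360 followed. It was at 11.78, 11.39, 10.82, 10.78 and 10.69 in untreated mice 1 to 5 and at 8.43, 9.34, 9.54, 9.05 and 9.56 in irradiated mice 1 to 5. The groups did not overlap and were 1.13 log2 units apart at their nearest. The difference was -1.91 (SE 0.25, 95% interval -2.42 to -1.39, limma adjusted p = 0.000559), or 3.75-fold. The ratio of signal to background was 24.3 to 70.4 in untreated and 18.6 to 34.0 in irradiated mice, with overlap.

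The increase of smallest p was that of gene0727. It was at 6.11, 5.92, 6.43, 5.78 and 5.54 in untreated mice 1 to 5 and at 7.33, 7.27, 7.13, 6.73 and 6.99 in irradiated mice 1 to 5. The groups did not overlap, and 0.30 log2 units parted the nearest mice. It rose by 1.13 (SE 0.19, 95% interval 0.74 to 1.52, limma adjusted p = 0.00555), or 2.19-fold. Its spot was dimmer, at 2.56 to 4.27 times the background in untreated and 4.07 to 9.76 times in irradiated mice.

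The clone gene1249 was at 7.05, 6.81, 6.93, 6.75 and 7.07 in untreated mice 1 to 5 and at 8.05, 8.34, 8.34, 7.74 and 7.42 in irradiated mice 1 to 5. Irradiated mouse 5 was the lowest of its group and still above every untreated mouse. The clone rose by 1.06 (SE 0.19, 95% interval 0.67 to 1.44, limma adjusted p = 0.00844), or 2.08-fold. Its spot stood at 5.01 to 8.96 times the background in untreated and 5.45 to 13.1 times in irradiated mice, with overlap.

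**Figure D3:**
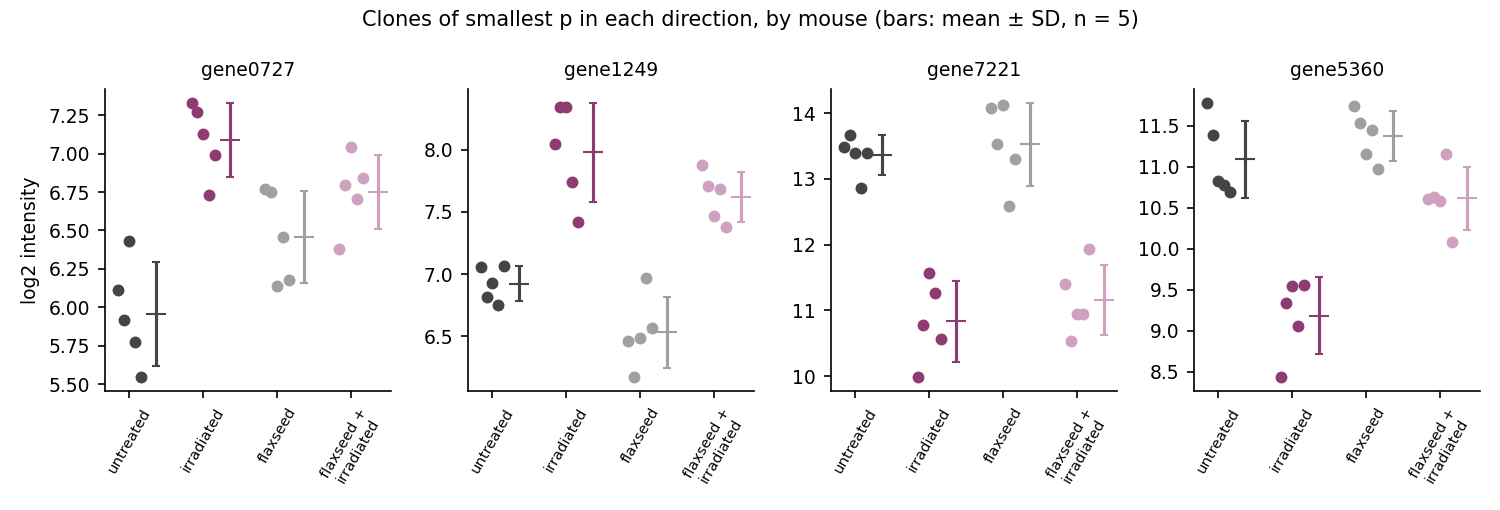
Log2 intensity (vertical axes, each with its own range) of the 2 clones with the smallest p among rises and the 2 among falls, in each mouse of the 4 groups, with mean ± SD of 5 mice. Irradiated mice lie apart from untreated mice for all 4 clones, and in flaxseed-fed mice gene7221 and gene1249 differ by irradiation by -2.37 and 1.09.

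In flaxseed-fed mice 2 of these 4 clones passed the test, where 209 of all 9600 clones (2.18%) passed. The clone gene7221 differed by -2.37 (SE 0.31, limma adjusted p = 0.000394) between flaxseed-fed mice with and without irradiation, and gene1249 by 1.09 (SE 0.19, adjusted p = 0.00427). For gene5360 the difference there was -0.76 (SE 0.25, adjusted p = 0.117), and for gene0727 it was 0.29 (SE 0.19, adjusted p = 0.488). The difference between the diets was 1.15 (SE 0.35) for gene5360 and -0.84 (SE 0.27) for gene0727. Neither passed as an interaction over all clones (limma adjusted p = 0.531 and 0.554; unadjusted p = 0.00354 and 0.00459). These clones were chosen by their difference without flaxseed, which is part of the interaction, so the choice favours a small unadjusted p. Of the 68 called clones 27 had an unadjusted interaction p under 0.05 (limma). No clone of the 9600 passed the interaction, where 578 (6.02%) had an unadjusted p under 0.05.

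Clones called in other animals were also read in each of the 10 mice. In flaxseed-fed mice 107 clones rose and 102 fell with irradiation (1.11% and 1.06% of 9600, together 2.18%), and these calls used none of the present 10 mice except for the estimate of spread and the normalisation. The median log2 difference of the 102 from the untreated mean was -0.81, -0.58, -0.57, -0.64 and -0.75 in irradiated mice 1 to 5. In the untreated mice, each set against the other 4, it was -0.30, 0.09, 0.12, -0.06 and 0.19. Irradiated mice thus lay below all untreated mice, and untreated mouse 1 was the lowest untreated one. For the 107 the medians were 0.43, 0.14, 0.31, 0.58 and 0.39 in irradiated mice and 0.20, -0.06, -0.06, 0.02 and -0.06 in untreated mice. Here irradiated mouse 2 fell below untreated mouse 1, and the groups overlapped. Over all clones these medians stayed between -0.01 and 0.04. Of the 102 clones 98 were lower in this comparison, by a median of -0.63, and 19 passed the test. Of the 107 clones 89 were higher, by a median of 0.35, and 6 passed. Over all 9600 clones 4673 were lower, of which 43 passed, and 4927 higher, of which 25 passed.

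The imbalance of background was then put into the fit. Of the 20 arrays, 9 fell into a class of higher background. It held irradiated mice 1, 2 and 4 but only untreated mouse 1. With the log2 median background of the array as a covariate 45 clones were called, 33 lower and 12 higher, and 37 of them were among the 68 in the same direction. With the class as a block 39 were called, 31 lower and 8 higher, of which 32 were among the 68. The sizes moved little: the median of the 43 falls was -1.61 without a term, -1.59 with the covariate and -1.60 with the class, and that of the 25 rises 0.97, 0.98 and 0.95. The 68 clones were chosen in the fit without a term. The covariate is a single value per array, so it does not carry differences in background between spots. The standard errors widened, from a median of 0.244 to 0.258 over the 68 clones with the covariate. With the covariate 27 of the 43 falls and 10 of the 25 rises still passed.

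Within classes few mice remain. In the lower class, with irradiated mice 3 and 5 against untreated mice 2 to 5, the medians of the same clones were -1.47 and 0.93, and 12 clones were called, all lower, of which 10 were among the 68. In the higher class, with 3 irradiated mice against untreated mouse 1 alone, they were -1.44 and 0.91, and 8 were called, of which 2 were among the 68. The spread in these fits came from all 20 arrays, so the lone untreated mouse is assumed to vary like the other mice. All 68 kept their sign in both classes, which the choice of clones fixes for the 52 whose groups do not overlap. The difference of gene7221 was -2.26 in the lower and -2.81 in the higher class, that of gene5360 -1.37 and -2.84, that of gene0727 1.14 and 1.00, and that of gene1249 0.99 and 0.99. Irradiated mouse 5 lay just under the gap that parts the classes. With it in the higher class, the fit with the class as a block called 30 clones, 26 of them among the 68. Within the lower and higher classes so drawn 3 and 4 clones were called, of which 0 and 3 were among the 68.

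The flaxseed-fed mice allowed the relation of each clone to array background to be measured in animals outside the comparison. Over these 10 mice, within groups, the slope of log2 intensity on log2 background was positive for 50.4% of all clones, with a median of 0.00, and passed the test for none. It was positive for 10 of the 25 clones that rose (median -0.02) and for 29 of the 43 that fell (median 0.31, quartiles -0.06 and 0.61).

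**Figure D4:**
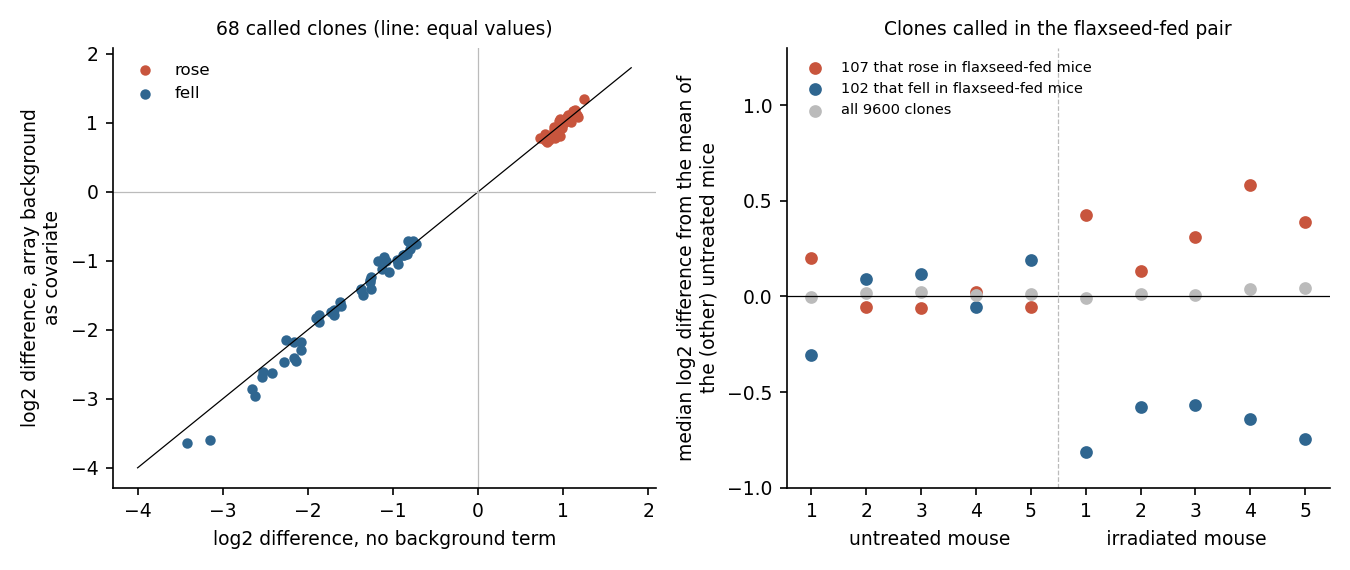
Left: log2 difference of the 68 called clones without a background term (horizontal axis) and with the log2 median background of the array as a covariate (vertical axis), where the points follow the line of equal values. Right: median log2 difference from the mean of the untreated mice (for an untreated mouse, the other 4) of the 107 and 102 clones that rose and fell with irradiation in flaxseed-fed mice, and of all clones, in each of the 10 mice.

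Background around the spots themselves moved with the clones. The background beside a spot was higher in irradiated mice by a median of 0.49 log2 units over all clones. It was higher by 0.91 around the 25 clones that rose and lower by 0.15 around the 43 that fell, and lower by 1.11 around the 14 that fell 4-fold or more. Across all 9600 clones the difference in intensity and the difference in spot background had a Pearson r of 0.576 and a Spearman rho of 0.521, which describes clones that share their arrays. With no background correction 86 clones were called, 34 higher and 52 lower, and 64 of the 68 were among them.

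The calls were unevenly placed on the array. The files list the spots in an order in which the IDs form 16 rows of square blocks. In block rows 1 to 8 of the file order 22 clones rose and 8 fell. In the lower rows, 9 to 16, only 3 clones rose and 35 fell, with 13 of the 14 falls of 4-fold or more in the lower rows. The median log2 difference of all clones ran the same way, at 0.09 in the upper and -0.06 in the lower rows. Measured mouse by mouse as the upper minus the lower median deviation, this gradient was 0.11, -0.10, 0.18, -0.05 and 0.02 in irradiated mice 1 to 5 and -0.08, -0.11, -0.04, -0.15 and -0.22 in untreated mice 1 to 5. The means were 0.03 ± 0.11 and -0.12 ± 0.07 (SD, n = 5), 0.15 apart (exact permutation test, two-sided, p = 0.0476, adjusted p = 0.238 over the 5 array measures). In flaxseed-fed mice the mean gradient was 0.09 ± 0.10 with irradiation and -0.005 ± 0.06 without (SD, n = 5). The flaxseed-fed pair thus differed in the same direction. Whether the gradient contributes to the clones shared with that pair was not tested.

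Spots touching a called clone moved with it. The median difference of the up to 8 adjacent spots had a median of -0.27 around the 43 falls and was below 0 for 41 of them, and it had a median of 0.28 around the 25 rises and was above 0 for 21. Over all clones it was below 0 for 48.8%. Of the 43 falls 10 touched another fall, and of the 25 rises 6 touched another rise, while over all 9600 clones 307 touched a fall and 188 a rise. With a local median over the array surface removed from each array, 53 clones were called, 36 lower and 17 higher, and 38 were among the 68. The medians then shrank to -1.33 for the same 43 falls and 0.79 for the same 25 rises. The upper rows now held 9 rises and 9 falls and the lower rows 8 and 27. Each clone had 1 place on all arrays, so position and clone cannot be told apart.

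**Figure D5:**
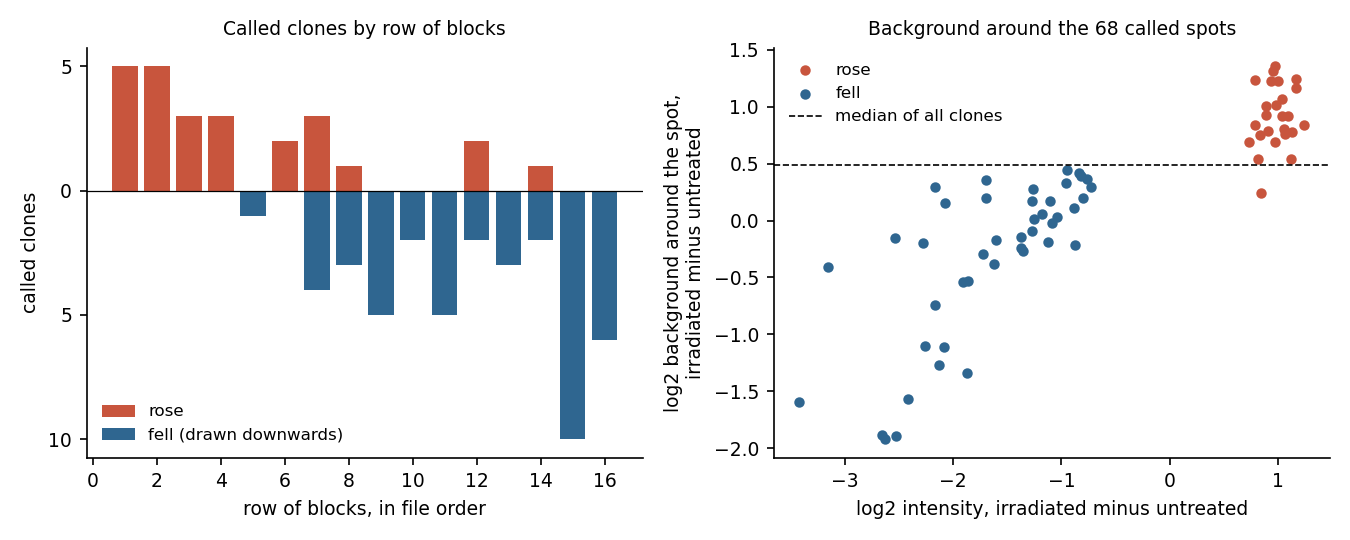
Left: number of called clones that rose (upwards) and fell (downwards) in each of the 16 rows of blocks, in file order. Right: log2 difference in the background around each of the 68 called spots (vertical axis) against the log2 difference in their intensity (horizontal axis), with the median of all clones, 0.49, as a dashed line.

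The number of calls depended on single mice. Without untreated mice 1, 2, 3, 4 or 5 it was 37, 32, 54, 33 and 13, and without irradiated mice 1, 2, 3 or 4 it was 20, 40, 31 and 33. Each of these fits also has fewer arrays. Without irradiated mouse 5 it was 108, of which 59 rose and 49 fell, so the excess of falls ended there, and without both that mouse and untreated mouse 1 it was 71, with 38 rises and 33 falls. The 4 clones given by ID passed in each of the 10 cases with 1 mouse left out. They were chosen for the smallest p in these same mice, which favours this. Their log2 differences ran from -2.73 to -2.33 for gene7221, -2.01 to -1.72 for gene5360, 1.03 to 1.26 for gene0727 and 0.96 to 1.20 for gene1249. The authors' processed table holds the constant 0.002 in 3558 places, and with it kept as a value 2 clones rose and 18 fell. With the constant set to missing 15 rose and 39 fell, and 48 of these 54 were among the 68.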

How the data were processed

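Lung RNA of 20 C57BL/6 mice was copied into radiolabelled cDNA and hybridised to the MA07 array, 1 array per mouse, per the labels' protocols. The deposited array tables give the median signal intensity and median background intensity of 9600 spots, per the file headers, linear and with the background not subtracted. The sources used here name no scanner, image software or spot filter. A table of processed intensities was deposited as well, of which 98.1% equalled signal minus background divided by its median on the array (relative tolerance 0.001) when matched by row order. A further 3558 values were the constant 0.002. Its linear scale and centring on the array median were read from this match, and it served as an alternative only.

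Groups of 5 were taken from the treatment labels, and each label names its own mouse. Background was corrected with normexp in limma 3.58.1 (R 4.3.3) with an offset of 16.3, which is 0.1 times the median signal of 162.5. Log2 values were quantile normalised over the 20 arrays, and no clone was filtered out. All 20 arrays entered 1 limma fit with a mean for each group (lmFit, eBayes; 16 residual and 6.08 prior degrees of freedom). The contrast was irradiated minus untreated, two-sided, with Benjamini-Hochberg adjustment over the 9600 clones. A clone was called at an adjusted p under 0.05. The log2 differences include the offset, which understates those of dim clones. Precision is limited by the number of arrays, with a median 95% interval of ± 0.46 log2 units per clone. Single array measures were compared by exact permutation over mice.

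None of the 9600 serial IDs matched the mouse RefSeq table (GRCm38.p6), so the gene lists and cell type markers could not be applied. The rule for named clones took the 2 smallest p in each direction. The comparison, its measures and rules were chosen with earlier results of these data known. Background classes parted the 20 arrays at the widest gap in log2 median background that left at least 5 arrays on each side. Alternatives covered the offset, background correction, normalisation, filters, array terms, the trend over the array surface and each mouse left out. Another split of the classes and the loss of 2 mice together were added after seeing the data.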

Additional observations from a re-analysis of the deposited data

Results flagged for a closer look

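Untreated mouse 1 had a median background of 35.8 intensity units, far from the 15.8 to 18.6 units of its group. It was the only such value in 18 groups of 5, made of 5 array measures and 4 clones in each group, and chance alone gives 0.9 of them.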

How the results depend on the processing

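Against 68 clones, 28 were called with plain background subtraction, 20 in the processed table with its constant kept, 43 among the brighter 4800 clones, of which fewer were tested, 45 with array background as a covariate, 39 with the background class as a block and 30 with irradiated mouse 5 in the higher class. Within the lower and higher classes, which hold fewer mice, 12 and 8 were called. With single mice left out the count ran from 13 to 108. For plain subtraction the cause was not tested. The processed table gave 54 calls with only its constant set to missing. The other alternatives gave 48 to 86 calls. The background difference ran from 0.285 to 0.735 and the signal difference from 0.0916 to 0.538 with single mice left out, and neither passed. No paired analysis was possible because the mouse numbers run on through the groups. Of 22 or 23 alternatives, gene0727 and gene1249 missed the threshold within both background classes, gene7221 in the higher and gene5360 in the lower class, where few mice remain. Signal over background limits the dimmest 10% of clones, whose median signal was 1.69 times background and whose differences the offset understates.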
